A study of Mus musculus with 54 samples.

Results

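The nuclear genes of oxidative phosphorylation were examined on 54 arrays of mouse brain RNA. Members were all genes whose symbol starts with Ndufa, Ndufb, Ndufc, Ndufs, Ndufv, Uqcr or Atp5, the genes Sdha to Sdhd, and Cox4 to Cox8 followed by a letter, each read from its brightest probe set that is annotated to that gene alone. This gave 90 genes of 18193 genes with a probe set of their own, namely 35 subunits of complex I, 4 of complex II, 8 of complex III, 9 of complex IV and 17 of complex V (73 subunits in all), 8 tissue-restricted isoforms, and 9 assembly factors and other products. Complexes were assigned by gene symbol, which places Ndufa4 in complex I. Genes that meet the same rule but had no probe set of their own were not analysed here. The arrays came from striatum, brainstem/midbrain and cerebellum of wild-type (WT) mice and of the transgenic lines TgA and TgB (PrPmtA and PrPmtB in the paper), which overexpress mutant human alpha-synuclein under the prion promoter, and the study asked how transgene and age shape the transcriptome. Young mice were 6 months old, with 2 arrays per line and region, 1 labelled female and 1 male. Old mice were 20 to 28 months old, with 4 WT, 2 TgA and 2 TgB arrays of striatum, 6, 4 and 3 of brainstem/midbrain (brainstem below) and 6, 5 and 4 of cerebellum. Of the 36 old arrays, 24 were labelled female, 6 male and 6 with both sexes. The paper's text calls this promoter neuron-specific, WT mice were of the FVB/N strain that forms the background of both lines, and the labels do not say whether an array holds 1 mouse or a pool.

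Oxidative phosphorylation takes place in the inner mitochondrial membrane. Complex I (NADH dehydrogenase) and complex II (succinate dehydrogenase) pass electrons from NADH and succinate to ubiquinone, complex III (cytochrome bc1) passes them on to cytochrome c, complex IV (cytochrome c oxidase) passes them to oxygen, and complex V (ATP synthase) uses the resulting proton gradient to make ATP. Most of the subunits are encoded in the nucleus and imported, whereas a small core is encoded in mitochondrial DNA, and neurons depend on this pathway for firing and synaptic transmission.

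Values are deposited log2 signals. They lay between 0.99 and 15.36, and the median per array was 3.46 to 3.63 on young and 3.38 to 3.48 on old arrays. A difference of 1 on this scale is a doubling. Signals of different genes were not compared with each other, since probe sets differ in brightness. Of the 90 members, 68 had a mean signal of 10 or more and 10 had one below 6, so most members lay among the brightest 2497 of the 45037 probe sets tested (mean of 10 or more), and these serve as a second background below. A gene was called when limma, fitted to the means of the 18 groups, put it past a false discovery rate of 0.05 over all probe sets (decideTests, method nestedF). Comparisons of 1 kind are tested jointly by this method, and for some called genes the adjusted p of a single comparison is therefore above 0.05. Standard errors (SE) come from this model. The labels name no batch, and array series is read here from the leading code in each array title. By this code every young array (18) was of array series 1 and every old array (36) of series 2 or 3. This makes age and series inseparable: what is called a change with age below cannot be told apart from a change of series. Each series holds all 3 regions. Markers matched the labelled regions, with summed striatal markers (log2) at 14.81 to 15.53 in striatum and at 11.17 to 12.03 elsewhere, summed cerebellar markers at 16.51 to 16.68 in cerebellum and at 12.21 to 13.20 elsewhere, and summed brainstem markers at 10.59 to 12.07 in brainstem and at 6.14 to 8.62 elsewhere. On the 3 arrays of 28-month TgA mice labelled female, the Y-linked gene Eif2s3y read 6.01 to 7.02. It read at most 3.23 on the 30 other arrays labelled female. Xist, a marker of female cells, read 8.20 to 10.05 on the 28-month TgA arrays and 9.50 to 11.56 on the 30 others. The Y-linked signal goes against a label of female alone, and whether these 3 arrays hold both sexes was not tested. The counts of members called in each comparison were also taken without these 3 arrays, the other counts were not. Without them 70, 59 and 64 members were called between regions (72, 64 and 63 with them) and 44, 52 and 42 with age in TgA striatum, brainstem and cerebellum (42, 55 and 41 with them). The samples are whole tissue, in which fewer cells of a type and less RNA per cell cannot be told apart.

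The level of the subunits as a group was followed on each array as the median, over the 73 subunits, of the deviation from each gene's mean over all arrays. This median was lowest in young striatum, at -0.41 to -0.31 on the 6 arrays. It was -0.31 to -0.16 on the 6 young brainstem arrays and -0.08 to 0.28 on the 6 young cerebellum arrays. Old striatum arrays read -0.14 to -0.03 and so lay above every young striatum array and below every old cerebellum array, which read 0.09 to 0.31. Old brainstem arrays were the most scattered, from -0.07 to 0.36, and none overlapped with young brainstem. The 2 arrays of young TgB cerebellum lay apart, with 0.28 on one and -0.08 on the other.

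**Figure D1:**
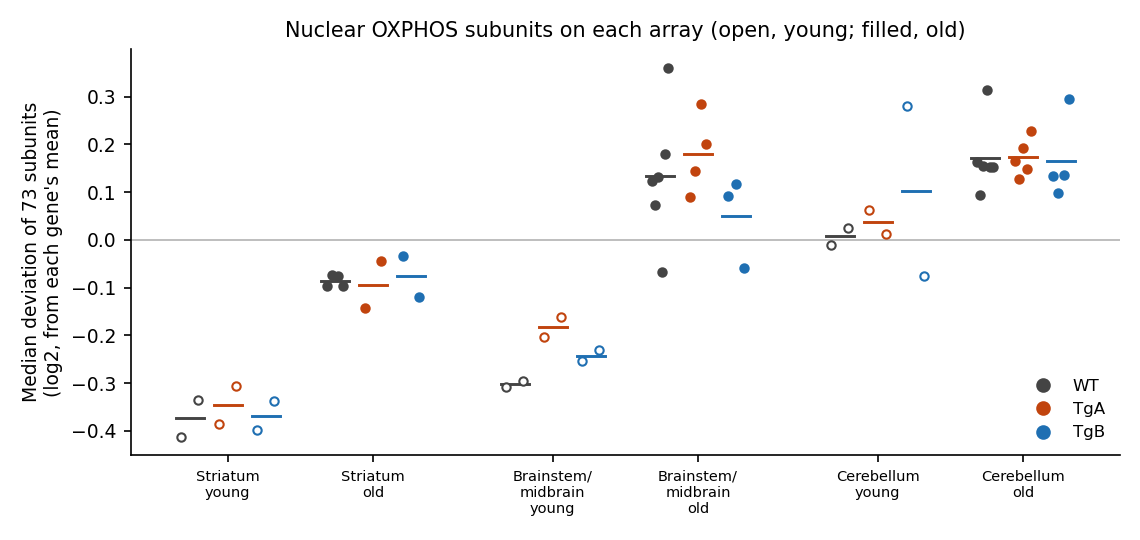
Median deviation of the 73 subunits from each gene's mean over all arrays (log2, y axis) on each of the 54 arrays, by region and age (x axis), with open points for young and filled points for old arrays, colours for lines and bars for group means. Striatum lies lowest at both ages, old arrays of striatum and brainstem lie above the young ones, and the 2 arrays of young TgB cerebellum lie at 0.28 and -0.08.

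Brain regions differed in most subunits, with striatum lowest and cerebellum highest. Of the 90 members, 68 were lower and 4 higher in striatum than in cerebellum, with a median log2 difference of -0.27, while over all probe sets 23.1% were called lower and 41.1% higher with a median of 0.03. Striatum was lower than brainstem in 49 and higher in 15 members (median -0.16; all probe sets, 21.2% lower and 42% higher). Brainstem was lower than cerebellum in 52 and higher in 11 members (median -0.16; all probe sets, 24% lower and 19.9% higher). Among the probe sets with a mean of 10 or more, 41.5%, 44.1% and 32.8% were called lower in these 3 comparisons, in the same order. Of the 73 subunits, 54 (74.0%) had their lowest region mean in striatum, as did 24.1% of all probe sets and 42.5% of the bright ones, and 59 (80.8%) had their highest in cerebellum, as did 27.2% and 34.4%. In the test itself, 42 subunits were called lower in striatum than in both other regions and 45 higher in cerebellum than in both, as were 12.2% and 15.3% of all probe sets.

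By complex, striatum was called lower than cerebellum in 32 of 35 subunits of complex I, 4 of 4 of complex II, 5 of 8 of complex III, 7 of 9 of complex IV and 15 of 17 of complex V, and no subunit was called higher. Medians of the difference ran from -0.25 in complex IV to -0.38 in complexes II and V. The 9 assembly factors and other products had no common direction, with 2 higher and 2 lower and a median of -0.01. The 2 higher ones were Cox7a2l, a supercomplex factor related to a complex IV subunit, at 0.44 (SE 0.06), and Ndufaf8, an assembly factor of complex I, at 0.30 (SE 0.08).

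**Figure D2:**
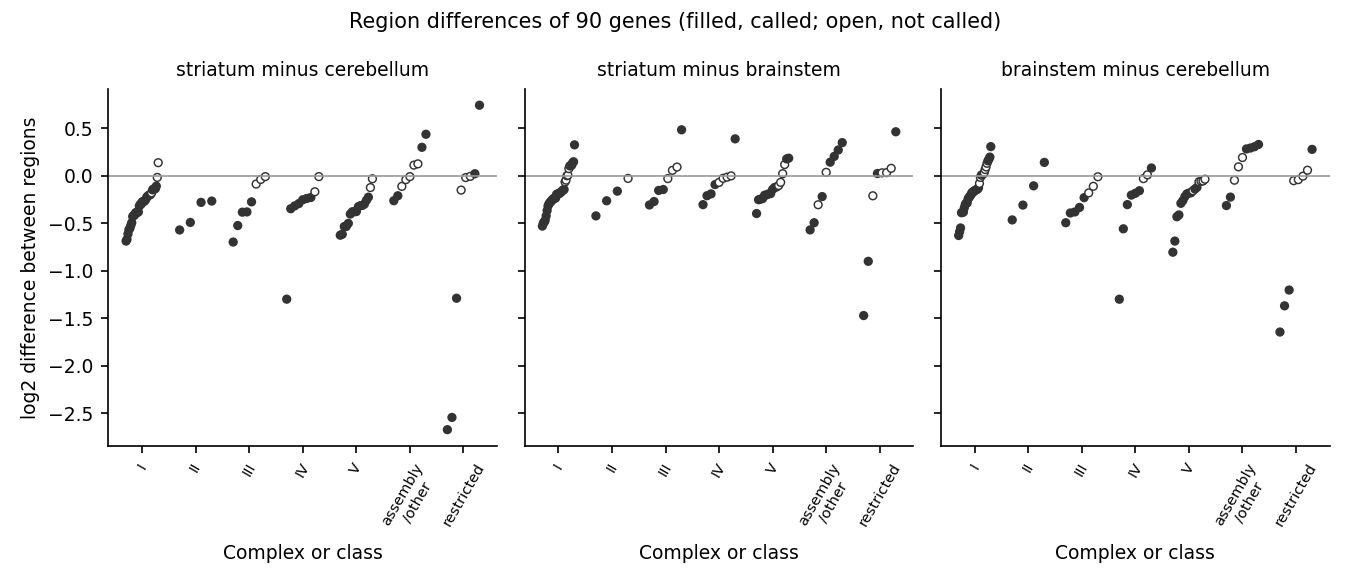
Log2 difference between regions (y axis) for each of the 90 genes, by complex or class (x axis), in the 3 comparisons of regions, with filled points for called and open points for uncalled genes. Nearly all subunits lie below 0 for striatum minus cerebellum, and the largest differences are those of Cox7a1 (-2.67) and Cox6b2 (-2.54) among the tissue-restricted isoforms.

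Among the widely expressed subunits with bright probe sets, Uqcrfs1, the Rieske iron-sulfur protein of complex III, had the largest difference between striatum and cerebellum. Its signal was 10.50 to 11.09 over the striatum arrays (median 10.78), 10.83 to 11.79 over the brainstem arrays (median 11.01) and 11.14 to 11.74 over the cerebellum arrays (median 11.59). Striatum minus cerebellum was -0.70 (SE 0.06) and striatum minus brainstem -0.31 (SE 0.06), with adjusted p of 5.66e-13 and 4.01e-05 in limma. Ndufab1, the mitochondrial acyl carrier protein that is also a subunit of complex I, read 11.78 to 12.13 in striatum, 12.08 to 12.84 in brainstem and 12.38 to 12.88 in cerebellum, with striatum minus cerebellum at -0.69 (SE 0.06). Ndufs7, an iron-sulfur subunit of complex I, read 11.43 to 12.22 in striatum, 11.93 to 12.82 in brainstem and 12.25 to 12.84 in cerebellum, and was lower in striatum by -0.67 (SE 0.06) against cerebellum and -0.53 (SE 0.06) against brainstem. For all 3 genes every striatum array lay below every cerebellum array, and brainstem overlapped with both.

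Some small subunits did not follow the order of the group. Uqcr11, a small subunit of complex III, was higher in striatum than in brainstem by 0.49 (SE 0.06), Cox8a, of complex IV, by 0.39 (SE 0.09) and Ndufa7, of complex I, by 0.33 (SE 0.08). The subunits of ATP synthase Atp5e and Atp5l were lower in brainstem than in cerebellum by -0.80 (SE 0.07) and -0.69 (SE 0.05). Averaged over both ages, all 5 genes were lower in brainstem than in striatum. On old arrays alone the means of striatum and brainstem lay close together for Atp5l (11.60 and 11.66), Atp5e (11.20 and 11.25) and Ndufa7 (11.05 and 11.06), and for Atp5l striatum minus brainstem was -0.091 in the third series alone. Cox8a did not differ between striatum and cerebellum beyond its error (-0.17, SE 0.09, not called).

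The region differences varied between array series, also between both series of old arrays. On the young arrays alone (first series), 64 members were lower and 2 higher in striatum than in cerebellum (median -0.36), 27 lower and 14 higher than in brainstem, and brainstem was lower than cerebellum in 57 and higher in 4. On the old arrays of the second series, 35 members were lower and 12 higher in striatum than in cerebellum (median -0.12), with only 2 striatum arrays, and brainstem against cerebellum was nearly balanced, with 30 lower and 26 higher (median -0.01). On the old arrays of the third series, 41 were lower and 3 higher in striatum than in cerebellum (median -0.32), and 18 lower and 5 higher in brainstem than in cerebellum (median -0.07). In WT arrays alone, 46 members were lower and 2 higher in striatum than in cerebellum.

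Isoforms known from muscle and testis had the largest differences between regions. Cytochrome c oxidase has subunits that exist as a widespread form and as a form restricted to some tissues, such as Cox6a1 and Cox6a2, Cox7a2 and Cox7a1 (the second of each pair found in heart and skeletal muscle), and Cox6b1 and Cox6b2 (the second found in testis). Cox7a1 read 3.08 to 5.03 (median 3.26) over the striatum arrays, 3.95 to 6.34 (median 5.45) over the brainstem arrays and 5.84 to 6.90 (median 6.18) over the cerebellum arrays. Every cerebellum array lay above every striatum array, and the difference was -2.67 (SE 0.16, adjusted p 3.43e-17 in limma). Cox6b2 read 4.14 to 6.25 in striatum, 5.68 to 7.19 in brainstem and 7.32 to 8.74 in cerebellum, so that cerebellum stood apart from both other regions without overlap, and striatum was lower than cerebellum by -2.54 (SE 0.13) and than brainstem by -0.90 (SE 0.13). Cox6a2 went the other way, with 2.61 to 4.63 in striatum, 2.36 to 4.00 in brainstem and 2.25 to 2.77 in cerebellum, and striatum higher than cerebellum by 0.74 (SE 0.12). Most values of Cox6a2 and the lowest of Cox7a1 lie below the median of all probe sets on an array, where a signal may not be above background, so that the sizes of their differences are not settled. Cox7b2, known from testis, read 2.05 to 2.84 outside the cerebellum and 2.68 to 5.25 within it, and Cox4i2, Cox8b, Cox8c and Ndufa4l2 had mean signals of 2.25, 3.68, 2.40 and 2.32.

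The widespread partners differed far less. Cox7a2 read 12.88 to 13.47 in striatum and 13.25 to 13.60 in cerebellum (-0.35, SE 0.04), Cox6b1 13.08 to 13.69 and 13.18 to 13.76 (-0.24, SE 0.04), and Cox6a1 13.82 to 14.21 and 14.04 to 14.33 (-0.23, SE 0.03). All 3 were called lower in striatum than in cerebellum, as most subunits were, also where their restricted partner was higher (Cox6a2). In the second series alone striatum minus cerebellum turned to 0.053 for Cox7a2 and 0.058 for Cox6b1.

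**Figure D3:**
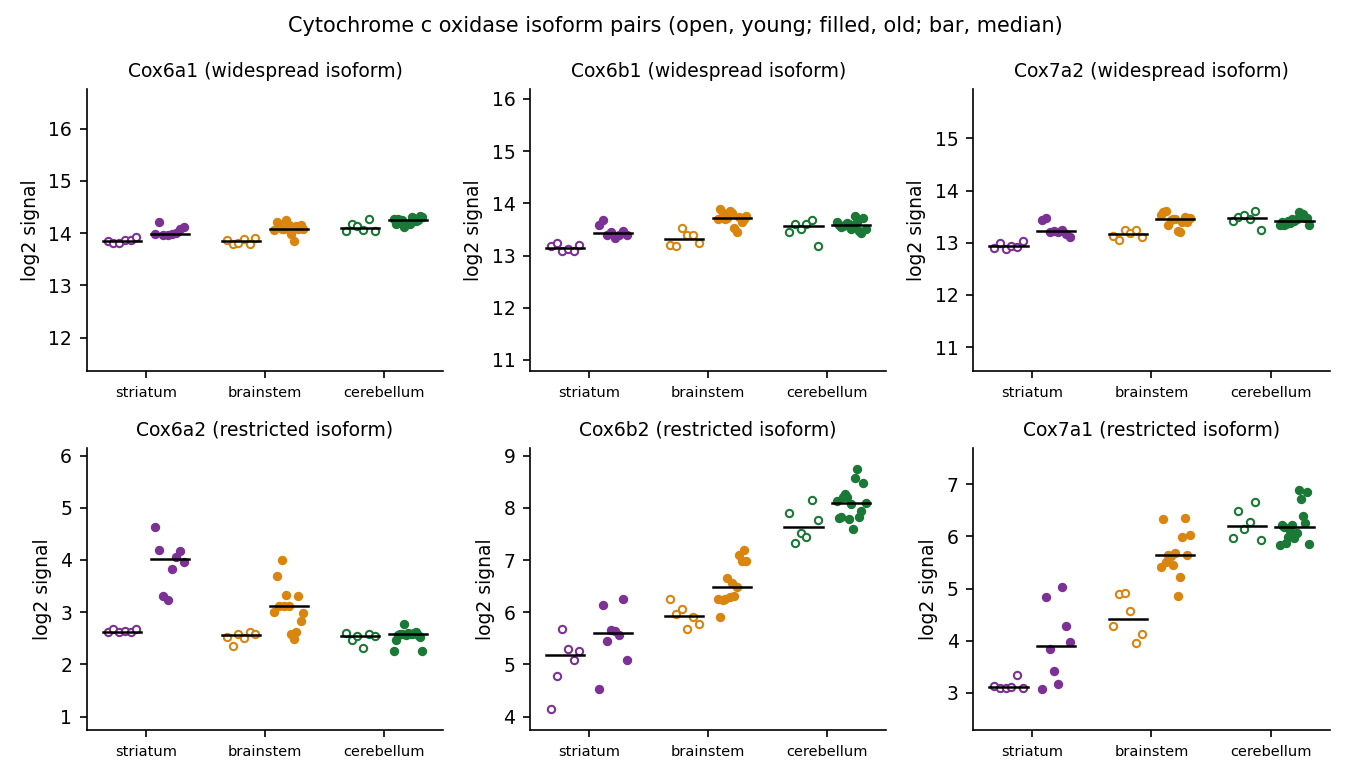
Log2 signal (y axis) of 3 widespread isoforms of complex IV subunits and of their restricted partners on each array by region (x axis), with open points for young, filled points for old arrays and bars for medians. All panels span the same number of log2 units, so that the spread over regions of Cox6b2 and Cox7a1 can be set against the narrow spread of the widespread isoforms.

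The sequences upstream of these isoforms are shown because the pairs were the members that differed most in regional pattern. RefSeq (build GRCm38.p6) had a promoter for 74 of the 90 members. In each, the 250 bases before the annotated start were searched on both strands for the core of the site of NRF-1, a regulator of respiratory chain genes (GCGCATGC or its reverse complement GCATGCGC, which can overlap), the site of GABP and other ETS factors (CCGGAAGT or ACTTCCGG) and the GC box (GGGCGG or CCGCCC). The NRF-1 core was present in 8 of 74 members (10.8%) and in 2.56% of 27025 genes with a promoter, the ETS site in 3 (4.05%) and in 3.23%, and the GC box in 31 (41.9%) and in 35.4%. The 8 members with the NRF-1 core were Atp5g2, Atp5k, Atp5l, Cox6a1, Ndufa6, Ndufa8, Ndufaf4 and Sdhb. In the stretches below, written 5′ to 3′ on the strand of the gene and ending at the base before the start, capitals mark a match to any of these motifs. They are Cox7a1 (chr7:30183921-30184170, plus strand), Cox7a2 (chr9:79759854-79760103, minus strand), Cox6b2 (chr7:4753095-4753344, minus strand), Cox6b1 (chr7:30626115-30626364, minus strand) and Cox6a1 (chr5:115348959-115349208, minus strand).
Cox7a1: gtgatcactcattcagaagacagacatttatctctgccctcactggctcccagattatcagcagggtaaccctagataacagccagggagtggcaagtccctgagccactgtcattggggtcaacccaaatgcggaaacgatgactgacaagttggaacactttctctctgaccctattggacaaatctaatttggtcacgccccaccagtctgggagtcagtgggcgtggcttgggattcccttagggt
Cox7a2: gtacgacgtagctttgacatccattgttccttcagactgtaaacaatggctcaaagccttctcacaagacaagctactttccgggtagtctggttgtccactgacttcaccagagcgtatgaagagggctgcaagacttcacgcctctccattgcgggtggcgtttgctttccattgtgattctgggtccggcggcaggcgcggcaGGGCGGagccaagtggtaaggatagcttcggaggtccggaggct
Cox6b2: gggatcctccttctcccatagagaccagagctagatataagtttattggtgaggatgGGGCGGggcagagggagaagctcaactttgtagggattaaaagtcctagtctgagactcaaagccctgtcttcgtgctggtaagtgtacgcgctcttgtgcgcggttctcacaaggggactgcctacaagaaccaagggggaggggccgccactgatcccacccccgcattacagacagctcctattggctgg
Cox6b1: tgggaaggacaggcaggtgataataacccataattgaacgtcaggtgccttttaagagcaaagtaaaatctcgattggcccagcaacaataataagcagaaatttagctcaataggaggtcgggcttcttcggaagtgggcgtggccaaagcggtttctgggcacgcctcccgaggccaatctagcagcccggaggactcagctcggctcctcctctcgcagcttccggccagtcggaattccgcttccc
Cox6a1: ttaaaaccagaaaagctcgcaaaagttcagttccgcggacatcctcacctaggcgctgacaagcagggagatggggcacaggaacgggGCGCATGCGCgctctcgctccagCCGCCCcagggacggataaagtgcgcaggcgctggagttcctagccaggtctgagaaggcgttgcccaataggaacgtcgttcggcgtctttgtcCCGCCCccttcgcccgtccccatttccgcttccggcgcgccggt
Cox6a1 held the NRF-1 core on both strands of the same overlapping stretch and 2 GC boxes, Cox7a2 and Cox6b2 held 1 GC box each, and Cox7a1 and Cox6b1 held none of the 3 motifs in this window. A match is a string of letters and not a measured binding site, and the search was not related to signal.

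Old and young arrays differed in the same direction for most called members. In striatum, old arrays were higher in 52 and lower in 5 members in WT (median difference 0.28), 41 and 1 in TgA (0.27) and 46 and 2 in TgB (0.29). Over all probe sets, 9.07% were called higher and 33.6% lower in WT striatum, 7.07% and 25.6% in TgA and 8.95% and 29.9% in TgB. In brainstem, 58 members were higher and 3 lower in WT (median 0.46; all probe sets 10.6% and 31.2%), 52 and 3 in TgA (0.36; 10.2% and 10.1%) and 49 and 2 in TgB (0.31; 8.25% and 8.55%). In cerebellum the counts were lower, with 33 higher and 7 lower in WT (0.12; 10.8% and 35.6%), 33 and 8 in TgA (0.14; 9.7% and 27.8%) and 18 and 3 in TgB (0.06; 6.98% and 20.8%). Bright probe sets also tended upwards, with 19.6% to 31.6% called higher and medians of 0.06 to 0.15 over the 9 comparisons, so that the members of cerebellum, at a median of 0.06 to 0.14, lay close to other bright probe sets there (0.06 to 0.08). Young TgB cerebellum had 1 array that lay apart, and without replicate 1 of that group 39 members were called with a median of 0.27, without replicate 2 the median was -0.12. In TgA striatum, with 2 old arrays, 19 members were called without replicate 2 of the old arrays and 24 without replicate 1 of the young ones, in TgB striatum 29 without replicate 1 of the old arrays, and in cerebellum 24 in WT and 26 in TgA without replicate 2 of the young arrays.

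Higher in all 3 lines were 37 members in striatum, 41 in brainstem and 14 in cerebellum, against 4.39%, 5.53% and 4.88% of all probe sets. Lower in all 3 lines were 0, 1 and 3 members, against 22.3%, 5.10% and 16.7% of all probe sets. The shares lower in all 3 lines among bright probe sets were not taken. The lines share no arrays, but all share the step from the first array series to the later ones. With the arrays of all 3 lines pooled, every old array lay above every young array for 39 members in striatum (all probe sets 3.97%), 32 in brainstem (3.87%) and 3 in cerebellum (2.77%). Among bright probe sets these shares were 17.1%, 14.4% and 8.25%. Every old array lay below every young array for 3 members in striatum, 1 in brainstem and 2 in cerebellum. The shares below were 31.5%, 3.75% and 21.5% over all probe sets, but 7.33%, 4.57% and 2.48% among bright ones.

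By complex, the median age change over the subunits (mean of the 3 lines) was 0.26 in striatum, 0.39 in brainstem and 0.12 in cerebellum for complex I, 0.22, 0.34 and 0.24 for complex II, 0.40, 0.69 and 0.29 for complex III, 0.32, 0.29 and 0.11 for complex IV and 0.32, 0.39 and 0.14 for complex V. Complex III stood highest in all 3 regions. With Ndufa4 counted in complex I, all complexes but II and IV followed the order brainstem, striatum, cerebellum. In complex IV the medians of striatum and brainstem lay close together, and medians with Ndufa4 included there were not taken. The share of subunits higher in all 3 lines of striatum was 12 of 35 in complex I, 1 of 4 in complex II, 5 of 8 in complex III, 7 of 9 in complex IV and 10 of 17 in complex V. In complex II, the sole subunit called in all 9 comparisons was Sdhb, the iron-sulfur subunit, whereas the flavoprotein Sdha and the membrane anchor Sdhc were called in none.

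**Figure D4:**
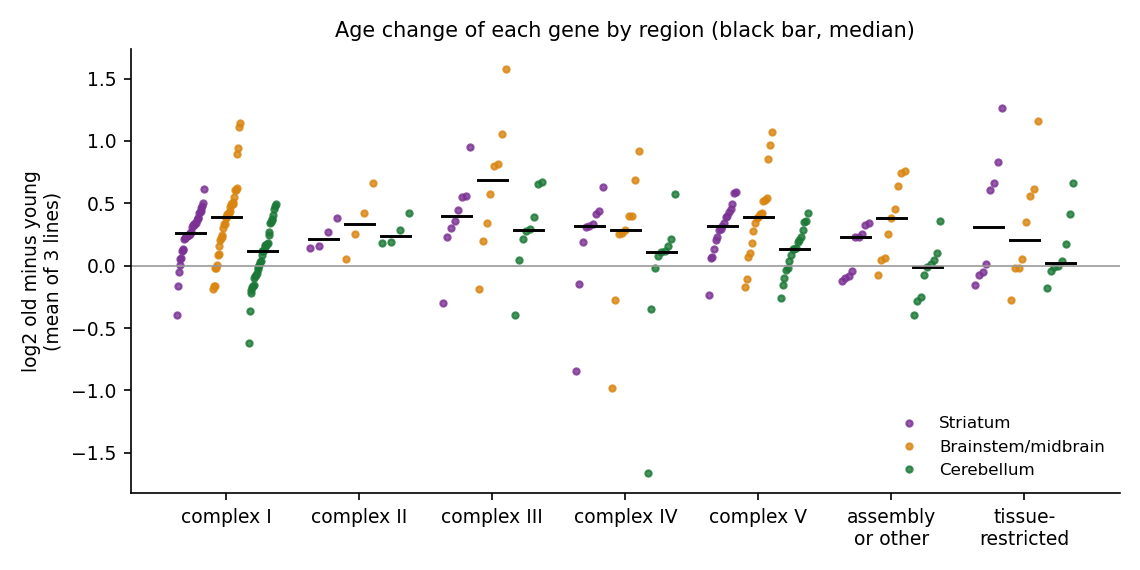
Mean log2 difference of old minus young over the 3 lines (y axis) for each gene, by complex or class (x axis) and region (colour), with black bars for medians. Most subunits lie above 0 in striatum and brainstem, complex III has the highest medians (0.40, 0.69 and 0.29 in striatum, brainstem and cerebellum), and Uqcr10 in brainstem is the highest point at 1.57.

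Uqcr10, a small subunit of complex III, had the largest mean change with age upwards, 1.07 over the 9 comparisons. In brainstem it read 9.35 to 9.85 on the 6 young arrays (median 9.51) and 10.47 to 11.47 on the 13 old arrays (median 11.25). In striatum it read 9.78 to 10.12 on young (median 9.96) and 10.53 to 11.57 on old arrays (median 10.87), and in cerebellum 9.95 to 10.78 on young (median 10.06) and 10.67 to 11.05 on old arrays (median 10.83). The ages overlapped in cerebellum alone of these 3 regions, where 1 young TgB array read 10.78. The differences were 1.53 (SE 0.21), 1.64 (SE 0.22) and 1.55 (SE 0.23) in WT, TgA and TgB brainstem (limma's adjusted p 1.62e-06, 1.48e-06 and 2.14e-05), 1.17, 0.67 and 1.02 in striatum and 0.71, 0.85 and 0.45 in cerebellum. All 9 were called, with single adjusted p of 0.0749 in TgA striatum and 0.214 in TgB cerebellum. Its other probe sets were dim, with mean signals of 3.44 and 2.58, and gave mean changes of 0.39 and 0.00.

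Other subunits of the same direction came from all complexes. Ndufb7, an accessory subunit of complex I, was called higher in all 9 comparisons (mean 0.70), with brainstem arrays at 9.92 to 10.44 when young and 10.81 to 11.71 when old and a WT brainstem difference of 1.24 (SE 0.17). A second probe set of Ndufb7, at a mean signal of 9.84, gave a mean of 0.99. Cox8a, of complex IV, rose in 8 of 9 (mean 0.71), and its other bright probe set gave 0.84. Atp5l, a small subunit of the membrane part of ATP synthase, rose in 8 of 9, with brainstem arrays at 10.48 to 10.72 when young and 11.54 to 11.91 when old, and WT, TgA and TgB differences of 1.15 (SE 0.11), 0.98 (SE 0.12) and 1.09 (SE 0.12). Uqcr11 (mean 0.67), Atp5e (0.61), Ndufb2 (0.60), Atp5g2 (0.59) and Uqcrc1 (0.56) were each higher in 8 of 9. Ndufa4, known today as a subunit of complex IV but counted in complex I here, was higher in 6 (mean 0.69). Called higher in all 9 comparisons were Ndufaf3, Ndufa13, Ndufa10, Ndufs3, Ndufb7, Sdhb, Uqcr10 and Atp5d, 8 of the 90 members, against 1.27% of all probe sets.

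A few subunits went down, and for some of them a second probe set disagreed. Uqcrc2, a core protein of complex III, read 12.49 to 12.71 on young and at most 12.45 on old striatum arrays, and was called lower in 4 of 9 comparisons (mean -0.29, largest in TgA cerebellum at -0.60, SE 0.13). Its other bright probe set, at a mean signal of 11.5, gave a mean of 0.34. Ndufb6, of complex I, was called lower in 4 of 9 (mean -0.40), with young cerebellum at 12.60 to 13.07 and old cerebellum at 11.78 to 12.79, and its other bright probe set gave 0.16. Cox5a, a nuclear subunit of complex IV, was called lower in 4 of 9 (mean -0.26), and its 2 other bright probe sets gave -0.30 and 0.14. Ndufc2, of complex I, was called lower in 6 of 9 (mean -0.23), and its 2 other bright probe sets gave 0.32 and 0.12. The directions of Uqcrc2, Ndufb6, Cox5a and Ndufc2 are therefore not settled here. Cox7c fell in 8 of 9 (mean -1.16), but its probe set is dim, at a mean signal of 4.70, for a subunit of all tissues. Over all genes with another probe set of mean signal 10 or more, 34 of 45 such probe sets had the same sign of the mean age change as the one used, and 43 of 45 had the same sign of striatum minus cerebellum. Some members with a rise were also contradicted by another bright probe set. Cox6c (mean 0.32) and Atp5o (0.37), each called higher in 7 of 9, had others at -0.39 and -0.22. Ndufb5 (0.15) and Uqcrb (0.18), called in none, had others at -0.32 and -0.34. The directions of these members are likewise not settled.

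**Figure D5:**
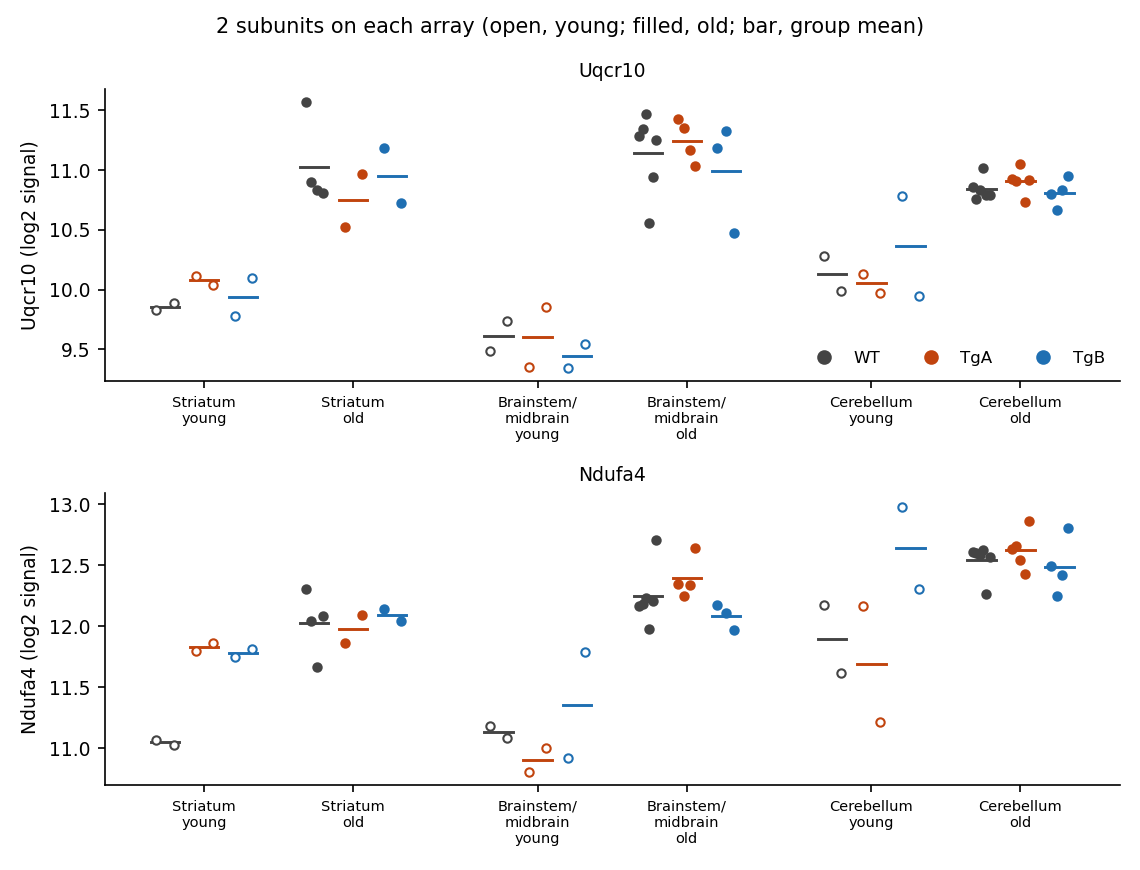
Log2 signal (y axis) of Uqcr10 and Ndufa4 on each array by region and age (x axis), with open points for young and filled points for old arrays, colours for lines and bars for group means. Old arrays of Uqcr10 lie above all young arrays in striatum and brainstem, and the 2 young WT striatum arrays of Ndufa4 (11.07 and 11.03) lie below the young TgA and TgB arrays.

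The difference with age was itself larger outside the cerebellum. Averaged over lines, 41 members had a larger and 2 a smaller age change in brainstem than in cerebellum (median difference 0.27; all probe sets 20.2% and 8.01%), and 23 had a larger and 0 a smaller one in striatum than in cerebellum (median 0.18; 6.21% and 7.4%). Between striatum and brainstem, 16 were smaller and 3 larger in striatum (median -0.09; 25.1% smaller and 8.16% larger). For Uqcr10 the brainstem change exceeded that of cerebellum by 0.90 (SE 0.18), and the striatum change minus the brainstem change was -0.62 (SE 0.19). For Atp5l these values were 0.84 (SE 0.09) and -0.48 (SE 0.10). Cox6a2 read 2.61 to 2.68 on young and 3.23 to 4.63 on old striatum arrays, with no overlap, and 2.32 to 2.60 and 2.25 to 2.77 in cerebellum, and the age change of striatum was called larger than that of cerebellum. Apart from most old striatum and a few old brainstem arrays, its values lie below the array medians, so that the size of this difference is not settled. Cox7a1 read 3.95 to 4.91 on young and 4.86 to 6.34 on old brainstem arrays, and 5.94 to 6.66 and 5.84 to 6.90 in cerebellum, a difference in age change of 1.17 (SE 0.31, adjusted p 0.00762 in limma). These calls rested on the arrays used. With the third series as the only old arrays, 1, 5 and 4 members were called for striatum against cerebellum, striatum against brainstem and brainstem against cerebellum, with median differences of 0.07, -0.14 and 0.20. Without replicate 1 of young TgB cerebellum striatum against cerebellum gave 11, without replicate 2 of that group 34. Striatum against brainstem gave 12 without replicate 1 of young TgA brainstem, and 12 without replicate 1 of young TgB brainstem.

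Markers of other cells moved with the same comparisons. Summed microglial markers (8 of 8 genes measured) were 11.23 to 11.50 on young and 11.72 to 12.78 on old striatum arrays, 10.51 to 10.89 and 11.33 to 12.59 in brainstem and 9.20 to 9.80 and 10.37 to 11.41 in cerebellum, with 3 to 7 of the 8 genes called higher in each of the 9 comparisons. Summed myelin markers (7 of 8 genes) were 15.24 to 15.39 on young and 15.47 to 15.74 on old striatum arrays, with no overlap, and summed striatal neuron markers (8 genes) were 15.01 to 15.53 on young and 14.81 to 15.20 on old striatum arrays. Of 7 astrocyte markers, Gfap (mean change 2.87) and Aldh1l1 (0.87) were called higher in all 9 comparisons and Gja1 lower in 7 (mean -0.28), and their summed level in striatum was 13.44 to 13.66 on young and 13.53 to 14.17 on old arrays. Summed cortical markers (5 of 6 genes) were 11.04 to 11.27 on young and 8.90 to 11.70 on old brainstem arrays, and summed pan-neuronal markers (8 genes) were 15.78 to 15.97 on young and 15.50 to 15.90 on old brainstem arrays. Summed endothelial markers (5 genes) were 8.52 to 9.90 on young and 9.79 to 10.32 on old cerebellum arrays. Between regions, all 8 microglial markers were called higher in striatum than in cerebellum, and summed myelin markers (7 of 8 genes) were 15.02 to 15.34 on old cerebellum and 15.57 to 15.87 on old brainstem arrays. Summed astrocyte markers were 13.44 to 14.17 in striatum and 14.29 to 14.78 in cerebellum. Summed pan-neuronal markers on young arrays were 15.16 to 15.37 in striatum, 15.78 to 15.97 in brainstem and 15.50 to 15.67 in cerebellum. On old arrays they were 15.16 to 15.53, 15.50 to 15.90 and 15.54 to 15.79. The part of these cell types in the differences of the subunits was not tested.

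No member differed between a transgenic line and WT when regions and ages were averaged, in either line. Over all probe sets 0.366% were called in these 2 comparisons. At an unadjusted p below 0.05 in limma, 12 tests of the 90 members passed over both comparisons. Of the 45037 probe sets, 13713 tests passed over the same comparisons. Median differences of the members were 0.02 in TgA and 0.00 in TgB. Within single regions and ages, 0 of the 90 members were called in any of 12 comparisons (all probe sets 1.64%). Over these 12 comparisons, 61 tests of members had an unadjusted p below 0.05 in limma, against 52834 tests of the 45037 probe sets. Past an adjusted p of 0.05, comparison by comparison, were 0 tests of members and 5421 of all probe sets. Medians over the members ran from -0.10 to 0.09. Without replicate 1 of young TgB brainstem 3 such calls appeared, as did 3 without replicate 1 of young TgA cerebellum.

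Differences between the lines in the age change came to 2 calls over 6 comparisons, both of Ndufa4 (all probe sets 3.78%). In striatum Ndufa4 read 11.07 and 11.03 in young WT and 12.31, 12.04, 11.67 and 12.08 in old WT, against 11.80 and 11.86 in young TgA and 11.87 and 12.09 in old TgA. The old arrays of both lines overlapped, and the young WT arrays lay below the young TgA arrays. The age change was smaller in TgA than in WT by -0.83 (SE 0.33, adjusted p 0.289 in limma). In cerebellum, the young TgB arrays read 12.98 and 12.30 and the young WT arrays 12.17 and 11.62, whereas the old arrays of TgB read 12.49, 12.25, 12.42 and 12.80 and the 6 of WT 12.26 to 12.62, a difference in age change of -0.80 (SE 0.29, adjusted p 0.114 in limma). Neither call remained when each comparison was tested on its own, when the 28-month TgA arrays were left out, or with array code as a random replicate block (0 calls in each).

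As a background for the lists below, 23.1% of all probe sets were called lower and 41.1% higher in striatum than in cerebellum. With age, 6.98% to 10.8% were called higher and 8.55% to 35.6% lower over the 9 comparisons. Bright probe sets had larger shares lower in striatum and higher with age, as given above. Of the wider mitochondrial lists, the mitochondrial ribosome, which translates the core subunits of mitochondrial DNA, is described first. Among its 76 genes, 51 were lower and 5 higher in striatum than in cerebellum (median -0.30), and with age 31, 15 and 32 were higher and 0 lower in WT, TgA and TgB striatum, 54, 51 and 47 higher and 0 lower in brainstem, and 24, 19 and 6 higher and 3, 3 and 1 lower in cerebellum. Mrpl14, a protein of the large subunit, had a mean age change of 0.92. Of 10 electron carriers and related genes, 9 were lower in striatum than in cerebellum, among them Cyc1, the cytochrome c1 of complex III, at -0.96 (SE 0.05). With age, cytochrome c itself (Cycs) was the only gene of this list called lower, in 8 of 9 comparisons (mean -0.34). Called higher with age were Coq8a and Pdss2 (6 of 9 each), Coq3 and Coq6 (5 each) and Coq7 and Cyc1 (4 each). Of 17 genes of the TCA cycle and pyruvate dehydrogenase, 13 were lower and 3 higher in striatum than in cerebellum (median -0.45), and 3 to 9 were higher with age in each comparison. Of 36 further assembly factors, 15 were lower and 11 higher in striatum than in cerebellum, and 7 to 17 were higher with age. Between these regions, the share lower was near that of bright probe sets and the share higher below that of all probe sets. In that list Uqcc2, a factor of complex III, was called higher in all 9 comparisons (mean 0.82) and Cox15, which makes heme A for complex IV, lower in all 9 (mean -0.77). Cox10, which makes heme O for complex IV and was named after its values were seen, was the only gene of these lists called by line, at 0.28 (SE 0.06) in TgA and 0.25 (SE 0.06) in TgB against WT (adjusted p 0.0302 and 0.0765).

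Of 12 transcriptional regulators of mitochondrial genes, 10 were lower and 1 higher in striatum than in cerebellum (median -0.38), among them Ppargc1b (-1.29, SE 0.15), a coactivator of mitochondrial genes, Gabpb1 (-1.19, SE 0.12), a partner of GABP, and Esrra (-0.75, SE 0.08), a nuclear receptor of energy metabolism. With age, 0 or 1 were higher, near or below the share over all probe sets, and 0 to 3 lower in each comparison. Gabpa was lower in 5 of 9 (mean -0.38) and Esrra higher in 4 (mean 0.36). Of 13 outer membrane, carrier and import genes, 9 were lower and 2 higher in striatum than in cerebellum, and Tomm70a, an import receptor, was higher there (1.27, SE 0.07). With age, only Tomm70a (8 of 9 comparisons, mean -0.42) and Tomm20 (5 of 9, mean -0.32) of this list were called lower. Called higher were Vdac2 and Timm50 (5 of 9 each), Slc25a3 and Timm23 (4 each), Tomm40 (3), Tomm22 (2) and Timm44 (1). Of 13 genes of glycolysis, 7 were lower and 4 higher in striatum than in cerebellum, and with age 5 to 11 were higher and 0 lower in each comparison, 11 of them in WT and in TgA cerebellum.

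Among the assembly factors within the 90 members, Ndufaf3 was called higher with age in all 9 comparisons (mean 0.44), Ndufaf5 in 4 and Ndufaf6 in 3, whereas Ndufaf1, Ndufaf2, Ndufaf4, Ndufaf7 and Ndufaf8 were called in none. In all, 21 of the 90 members were called with age in no comparison, among them Ndufab1, Ndufa5, Ndufb3, Ndufb10, Sdha, Sdhc, Uqcrb and Atp5b, the catalytic beta subunit of ATP synthase, and 4 (Ndufb11, Ndufc1, Atp5h and Atp5j) were called higher in some comparisons and lower in others. The shares of all probe sets called in none or in both directions were not taken, so these counts have no background.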

How the data were processed

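The 54 arrays are Affymetrix mouse genome arrays hybridized with biotin-labelled cRNA made from total RNA. The authors deposited log2 signals, 1 per probe set, after normalization of the whole set of chips. Whether this was RMA (methods of the paper) or GCRMA (processing notes of the submitters) is not settled, so the sizes of differences between weak signals are uncertain. Arrays give no read depth, and the number of arrays per group (2 to 6) limits the precision. Where replicates are not separate animals, p-values measure only the spread between these arrays.

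Groups came from the labels. Probe sets were named through the platform annotation, where 34945 had 1 gene, 932 several and 9160 none. After 64 array controls were left out, 45037 probe sets were fitted in R 4.3.3 with limma 3.58.1, with moderated standard errors, and called with decideTests (nestedF, Benjamini-Hochberg, false discovery rate 0.05) within each family (regions, age, age by region, lines, lines within region and age, age by line). Adjusted p-values are those of single comparisons. The fit was tested on simulated data. Members and gene lists were chosen with earlier results of these data known. Named were the 5 highest and lowest called members by region, the 5 largest changes with age in all 3 lines of a region, the extremes of each complex, isoform pairs, all calls by line, and 2 to 4 genes of each other list, with some others chosen after their values were seen (such as Ndufa7, Uqcr11, Sdhc, Atp5b). Marker sums are log2 of summed linear signals. The alternatives were the 22518 brighter probe sets, comparison-wise calls, quantile normalization, array code as a random replicate block, sex or array series as terms, single series, WT arrays only, a fit per region, the mean of a gene's probe sets, arrays left out singly, and the 28-month TgA arrays left out.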

Additional observations from a re-analysis of the deposited data

Results flagged for a closer look

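In 84 sets of 4 to 6 arrays, 7 had an array that lay far from the others of its group, where chance gives about 1 in 20. Uqcr10 read 11.57 in WT striatum old 1 (the others, 10.81 to 10.90). Cox6a1 read 14.12 in WT striatum old 4 (13.97 to 13.99) and 14.30 in TgB cerebellum old 4 (14.17 to 14.18). Cox7a1 read 5.98 in TgA brainstem old 3 (5.63 to 5.64), Cox7a2 13.20 in WT brainstem old 4 (13.47 to 13.61) and Cox6b2 8.74 in WT cerebellum old 4 (7.80 to 8.14). On that last array the median deviation of the subunits was 0.31 (0.09 to 0.16 on the others). Within their groups, WT striatum old 1 was the only array of series 2 and TgB cerebellum old 4 the only one of series 3. By label, TgB cerebellum old 4, WT brainstem old 4 and WT cerebellum old 4 were of 20-month mice of both sexes. The part of series, age and sex in these values was not tested.

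By the test of the difference itself, 23, 19 and 43 of the 90 members were called for striatum minus cerebellum, striatum minus brainstem and brainstem minus cerebellum. Of the 13 members that were followed singly, the change with age differed between regions for 7. For striatum minus cerebellum it was 0.23 for Cox6b1, 0.33 for Cox7a2, 0.36 for Atp5l, 1.22 for Cox6a2 and 0.84 for Cox7a1 (Cox6a2 rests mostly on signals below the array medians). For striatum minus brainstem it was -0.53 for Ndufb7, -0.62 for Uqcr10, -0.48 for Atp5l and 0.71 for Cox6a2. For brainstem minus cerebellum it was 0.79 for Ndufb7, 0.90 for Uqcr10, 0.32 for Cox6b1, 0.27 for Cox7a2, 0.84 for Atp5l, 0.52 for Cox6a2 and 1.17 for Cox7a1. Between lines it differed for Ndufa4, by -0.83 (TgA minus WT, striatum) and -0.80 (TgB minus WT, cerebellum). Limma's adjusted p of the single comparison was above 0.05 for both calls of Ndufa4. In striatum minus cerebellum it was 0.119 for Cox6b1 and 0.116 for Cox7a1, and in brainstem minus cerebellum 0.0807 for Cox6a2.

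Outside the members, Eif2s3y read 6.01 to 7.02 on 3 arrays of 28-month TgA mice labelled female, against 2.76 to 3.23 on the 30 other arrays with that label. Xist, a marker of female cells, read 8.20 to 10.05 on the 28-month TgA arrays and 9.50 to 11.56 on the 30 others.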

How the results depend on the processing

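Counts are of the 90 members called. Between regions, the main counts of 72 (striatum minus cerebellum), 64 (striatum minus brainstem) and 63 (brainstem minus cerebellum) moved where arrays were fewer. Striatum minus brainstem gave 41 in the first series, 38 in the second, 37 in the third and 29 in WT alone. Striatum minus cerebellum gave 47 in the second and 44 in the third series, and brainstem minus cerebellum 23 in the third series and 35 in WT alone. With age, testing each comparison on its own gave 9 in TgA striatum (42), 29 in TgB striatum (48), 32 in TgB brainstem (51), 19 in TgA cerebellum (41) and 6 in TgB cerebellum (21), and 12 for the age change of striatum minus cerebellum (23). With array code as a random replicate block (consensus correlation 0.136), TgB cerebellum gave 13. With third-series old arrays alone, TgB striatum gave 26, TgB brainstem 22, and the age change between regions 1, 5 and 4 (23, 19 and 43). With the brighter probe sets alone, which hold 84 members, the age change gave 15 for striatum minus cerebellum (23) and 11 for striatum minus brainstem (19). The 2 calls of age by line fell to 0 with the brighter probe sets, separate testing, quantile normalization, the replicate block, the mean of probe sets, a fit per region, third-series old arrays, or without the 28-month TgA arrays. Apart from fewer arrays or members where these apply, the cause was not tested.

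Leaving out 1 array at a time gave 67 to 74, 60 to 66 and 57 to 65 between regions. With age it gave 41 to 58, 19 to 44 and 29 to 48 in WT, TgA and TgB striatum, 53 to 63, 45 to 54 and 42 to 53 in brainstem, and 24 to 41, 26 to 41 and 16 to 39 in cerebellum. The age change between regions gave 11 to 34, 12 to 22 and 30 to 47, lines averaged 0 throughout, lines within region and age 0 to 3, and age by line 0 to 4. Directions turned for Uqcrc2 in WT brainstem with age (0.060, mean of probe sets), for Ndufb7 (0.14), Cox7a2 (0.053) and Cox6b1 (0.058) in striatum minus cerebellum and Cox7a2 (0.12) in brainstem minus cerebellum in the second series alone, for Atp5l in striatum minus brainstem in the third (-0.091), and for Ndufb6 in TgB cerebellum with age (0.053, third-series old arrays). A fit per region was not run for comparisons that span regions. The number of arrays and weak signals limit what could be called.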
